A study of Sus scrofa with 12 samples.

Results

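Collagen chain genes encode the polypeptide chains that assemble into collagens, the main structural proteins of the extracellular matrix. They were taken here as every gene of the deposited coding-gene table whose symbol has the form COL, a type number, A and a chain number, which gave 44 of 21674 genes. By the type of collagen they build, 11 are fibrillar, 6 belong to type IV of basement membranes, 10 are FACIT chains (fibril-associated collagens with interrupted helices) and 17 belong to other types. The last class held 5 chains of the beaded filament type VI, 4 transmembrane chains, 3 chains of short-chain networks, 2 multiplexins, the anchoring fibril chain COL7A1, and COL26A1 and COL28A1. COL6A4, a further type VI chain, had no row in the table.

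The libraries come from testis tissue of boars of a Chinese local breed, Hezuo, and of Landrace, sampled on day 30 or day 120 of life, and the comparisons ask how the testis transcriptome differs with age within a breed and with breed at an age. Each of the 4 groups had 3 animals: Ha is Hezuo at 30 days, Hb Hezuo at 120 days, La Landrace at 30 days and Lb Landrace at 120 days. All 12 libraries were made from total RNA of snap-frozen tissue. The labels give no batch.

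Collagen chains wind into helical trimers inside the cell, are secreted, and then form fibrils, sheets, filaments or anchors according to type. In the testis, type IV networks lie in the basement membrane around the seminiferous tubules, and fibrillar collagens fill the wall of peritubular myoid cells, the interstitium and the tunica. FACIT chains sit on the surface of fibrils, type VI filaments and the multiplexins link basement membranes to the surrounding matrix, and the transmembrane collagens stay in the membrane of the cell that makes them.

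Total counts over the coding table ran from 22538417 to 23758931 in Ha, 17165519 to 22707568 in Hb, 18523274 to 23563949 in La and 18998959 to 23253496 in Lb. The tissue label was checked against markers: the summed level of 10 spermatid genes, of which PRM1 was the most abundant, was 4.41 to 8.86 CPM (counts scaled to library size) in the 30-day libraries and 3153 to 8230 CPM at 120 days. The 8 Sertoli cell genes summed to at least 405 CPM in each library, with INHA the most abundant. The 3 Hb libraries were not alike: the 7 Leydig cell genes, led by the steroid enzyme CYP17A1, had summed CPM of 4065, 331 and 268 in Hb. Several collagen chains were also higher in Hb1 than in Hb2 and Hb3. In every library of the other groups the Leydig sum was 3085 CPM or more, so by this sum Hb2 and Hb3 were the low ones. Results that move with Hb1 are therefore given with and without it. Values without Hb1 rest on Hb2 and Hb3, and the reason for the difference was not tested.

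Of the 44 chains, 36 had enough counts to be tested in all 4 pairwise comparisons, 5 in some of them and 3 in none. COL10A1, of the growth plate, COL20A1, a FACIT chain, and COL4A6, a type IV chain, were the untested ones: their highest deposited FPKM (fragments scaled to gene length and library size) in any library was 0.02, 0.18 and 0.08. At this depth 5 chains were at or under 3 counts in every library of at least 1 group, and 11 stayed under an FPKM of 1 in every library.

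The summed FPKM of the 44 chains was 1266, 1268 and 1415 in Ha, 130.1, 85.8 and 81.7 in Hb, 2145, 2154 and 2441 in La, and 564, 571 and 565 in Lb. The groups did not overlap and fell in the order La, Ha, Lb, Hb, with both 120-day groups below both 30-day groups. As a share of all counts, collagen chains took 0.853% to 0.928% in Ha, 0.064% to 0.102% in Hb, 1.28% to 1.46% in La and 0.420% to 0.428% in Lb. These are bulk tissue libraries, so fewer cells of a type and less RNA per cell cannot be told apart, here or in any result that follows.

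The make-up of the collagen pool also differed between the groups. In percent of the summed FPKM, fibrillar chains held 57.8, 55.7 and 46.4 in Ha, 38.5, 18.0 and 16.2 in Hb, 47.9, 42.9 and 47.5 in La, and 64.2, 60.1 and 52.8 in Lb. That class was the largest in 10 of 12 libraries, and only in Hb2 and Hb3 did the other types and FACIT chains each hold more. Without Hb1 the mean fibrillar share in Hb was 17.1%, against 24.2% with it. Type IV chains, in the same unit, held 19.2, 19.6 and 20.2 in Ha, 16.1, 16.9 and 13.9 in Hb, 13.1, 11.06 and 11.9 in La, and 15.6, 17.6 and 19.5 in Lb. For FACIT chains the percent was 6.79, 8.46 and 13.8 in Ha, 19.1, 30.2 and 31.0 in Hb, 23.5, 29.6 and 25.2 in La, and 8.01, 7.09 and 12.6 in Lb. The other types held 16.2, 16.3 and 19.6 in Ha, 26.3, 34.9 and 39.0 in Hb, 15.6, 16.4 and 15.4 in La, and 12.2, 15.2 and 15.2 in Lb, and by mean were the largest class in Hb, at 33.4%, or 36.9% without Hb1. The FACIT share was thus high in Hb and La and low in Ha and Lb, and in La it came mostly from COL9A2, which alone made up 23.4% ± 3.18 (SD, n = 3) of the collagen FPKM there. COL3A1 was the most abundant chain in Ha, La and Lb, with a mean of 37.2%, 32.4% and 36.5% of the collagen FPKM. In Hb the libraries differed: COL3A1 held 21.7% in Hb1 but 7.06% in Hb2 and 5.17% in Hb3, and COL6A2 9.53%, 16.1% and 16.6%, which made COL6A2 the first by mean share, at 14.1%, or 16.4% without Hb1.

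**Figure D1:**
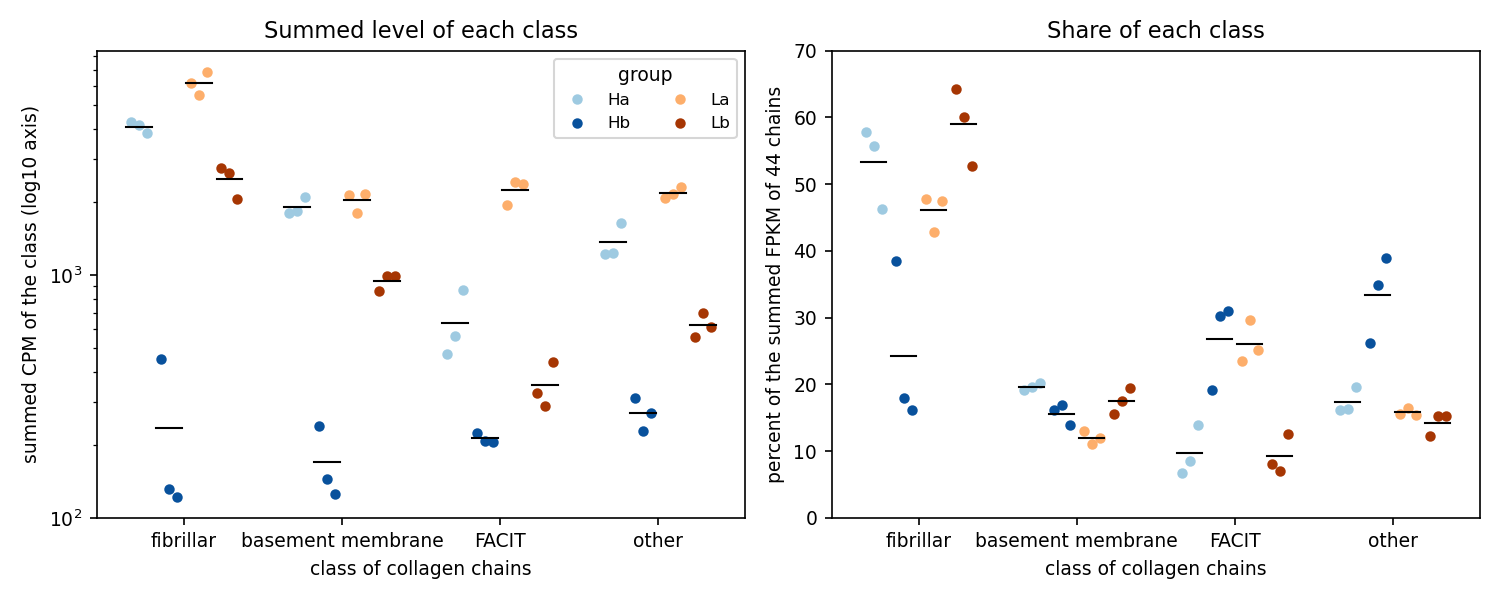
Summed TMM-scaled CPM of each class on a log10 axis (left) and percent of the summed FPKM of the 44 chains (right), 1 point per library, with bars at the group means of 3 libraries. Each class sum is lower in every 120-day library than in every 30-day library, and the gap is smallest for FACIT, with Lb at 289 to 437 CPM and Ha at 473 to 865 CPM.

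Each comparison was tested over all coding genes with edgeR, and a gene counts as called at an adjusted p under 0.05 with a log2 fold change over 1 in size. From Ha to Hb 40 chains were tested, of which 27 were lower, where 23.2% of 16548 tested genes were lower, and 3 were higher, where 28.2% of all tested genes were higher and 51.4% called either way. The median log2 fold change of the chains was -2.33, beside -0.02 over all tested genes. From La to Lb, 15 of 40 tested chains were lower and 5 higher, where 20.1% and 27.5% of 16637 tested genes were called in those directions and 47.6% in either. Here the chains had a median of -0.95, beside 0.01 over all tested genes. No library is shared by these age comparisons, and 12 of 39 chains tested in both were lower in both, where 15.4% of 16153 genes tested in both were. These were 46.2% of the 26 such chains lower from Ha to Hb, below the 66.2% among all genes lower there, and 80.0% of the 15 lower from La to Lb, beside 77.8%. Only COL17A1 and COL24A1, 2 chains, were higher in both, where 23.5% of those genes were, and limma on log2(FPKM + 1) called neither.

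At 30 days, from Ha to La, 5 of 40 tested chains were higher and 5 lower, where 3.60% and 4.01% of 15648 tested genes were called in those directions and 7.62% in either, and the median of the chains was 0.12, beside 0.00 over all tested genes. The count of 5 lower chains was 3 without La1, 3 without La2 and 2 without La3. These 5 include the assembled COL6A1 row described below, whose breed difference is not taken as that of the gene. At 120 days 17 of 37 tested chains were higher in Lb than in Hb, where 2.65% of 16311 tested genes were higher and 3.85% called either way. That count was 10 without Hb3, 8 without Lb2 and 11 without Lb3, and the chains had a median of 1.28, beside 0.00 over all tested genes. In edgeR 0 chains were lower in Lb, where 1.20% of all tested genes were; 1 chain, COL2A1, had an unadjusted p under 0.05 in that direction. DESeq2 called 1 chain lower, COL2A1, limma called 0 with a pseudocount of 1 and 1, COL6A1, with a pseudocount of 0.1, and edgeR with all 12 libraries in 1 fit called 2, COL2A1 and COL6A1. The COL6A1 of these calls is the same assembled row. The breed comparisons share no library with each other, but each shares its groups with the age comparisons, so a low Hb enters both the Hezuo age difference and the breed difference at 120 days.

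Whether the age difference itself differed between the breeds was tested as an interaction over all 12 libraries, as the Landrace log2 fold change minus the Hezuo one. Of 41 tested chains 17 were called with a positive difference, where 3.51% of 17332 tested genes were, and 2 with a negative one, where 1.62% were and 5.14% were called either way. Without regard to calls 31 were positive and 10 negative. The median over the chains was 1.31, beside 0.02 over all tested genes. The count of 17 was 12 to 16 with 1 library left out, and 12 without any one of Ha1, La1 or Lb2. The count of 2 was 1 without any one of Ha1, Ha2, Hb3, La2, La3, Lb1 or Lb3. With library totals in place of TMM scaling, the median of all tested genes moved by -0.30 from Ha to Hb, by -0.17 from La to Lb and by 0.15 in the interaction. Under that scaling the medians of the chains were -2.64, -1.12 and 1.46, and the share of higher calls among all called genes went from 54.8% to 44.1% from Ha to Hb and from 68.4% to 81.6% in the interaction. Permuting 3 animals against 3 exactly cannot give a p below 0.1 for any chain, so it was not done.

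**Figure D2:**
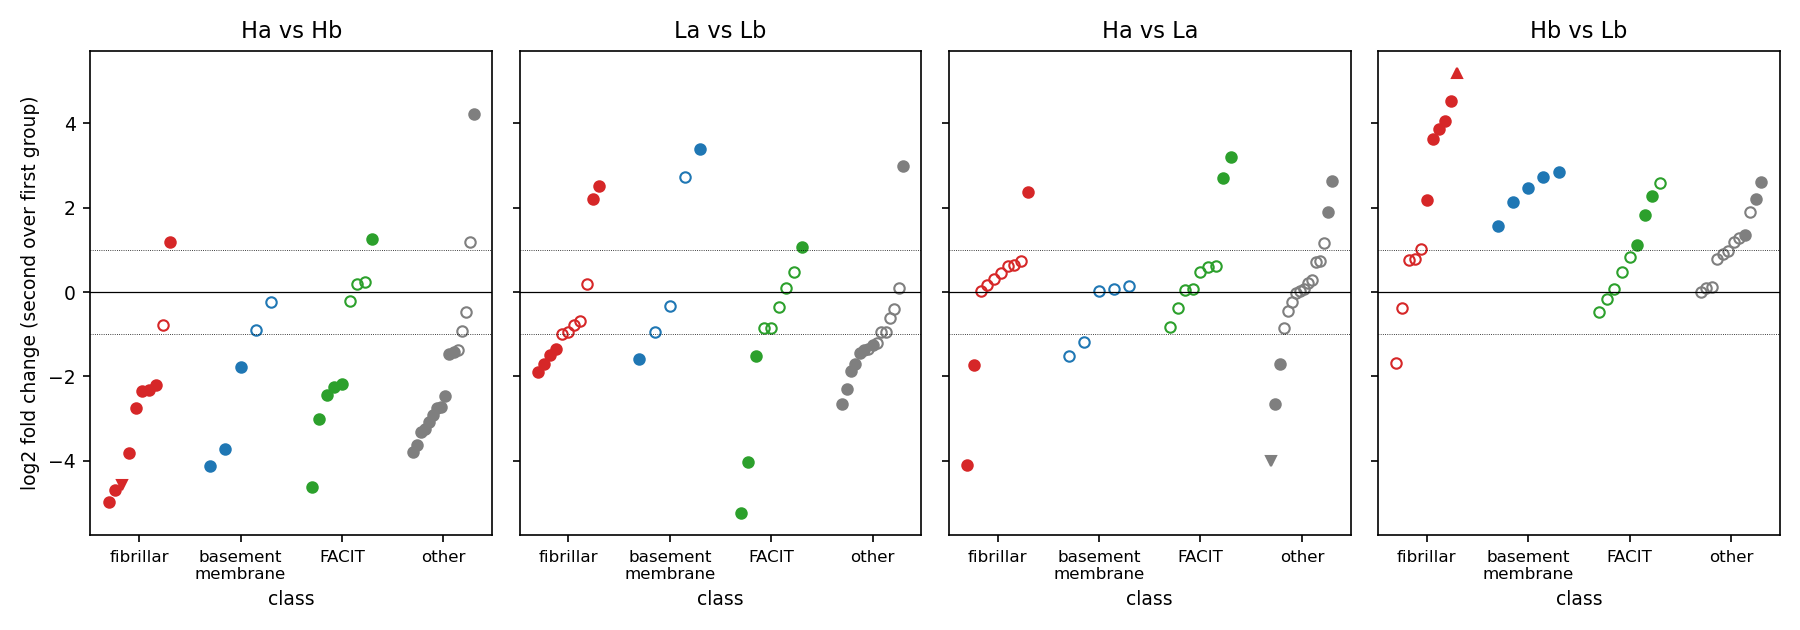
Log2 fold change of each tested chain (second group over first) by class in the 4 comparisons. Filled marks are called by edgeR, open marks are not, dotted lines mark a log2 fold change of 1 in size, and triangles are lower bounds for COL5A1 and COL6A1, each at 0 in a whole group; in Hb against Lb the 17 called chains all lie above 0.

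Fibrillar chains build the banded fibrils that carry tension. From Ha to Hb 8 of 10 tested fibrillar chains were lower and 1 higher (median -2.55), and from La to Lb 4 of 11 were lower and 2 higher (median -0.95). The 4 lower from La to Lb were 7 of 10 in both limma fits, and the 2 higher were 0 with limma at a pseudocount of 1 and 1 at a pseudocount of 0.1. Over all tested genes 23.2% were lower and 28.2% higher from Ha to Hb, and 20.1% and 27.5% from La to Lb. In Lb against Hb 6 of 11 were higher, where 2.65% of all tested genes were, with a median of 2.17, and this count was 3 without any one of Hb3, Lb1 or Lb2. COL3A1 forms type III, the collagen of pliable tissues and vessel walls. Its deposited FPKM was 532, 476 and 454 in Ha, 28.3, 6.05 and 4.23 in Hb, 738, 651 and 793 in La, and 229, 207 and 185 in Lb. Hb1 held several times the level of Hb2 and Hb3, yet all Hb values lay below all values of the other groups. For COL3A1 edgeR gave a log2 fold change of -4.69 (standard error 0.80, adjusted p = 0.00149) from Ha to Hb and of -1.49 (standard error 0.14, adjusted p = 2.57e-05) from La to Lb. Landrace at 30 days stood a little above Hezuo, at 0.61 (standard error 0.11, adjusted p = 0.00742) in edgeR, under the fold threshold, and at 120 days far above it, at 3.86 (standard error 0.73, adjusted p = 0.0284). The age difference of COL3A1 differed between breeds by 3.19 (standard error 0.79, adjusted p = 0.0352) in edgeR. Without Hb1 the COL3A1 values were -6.13 from Ha to Hb, 5.25 from Hb to Lb and 4.65 for the interaction. The call from Hb to Lb was lost in edgeR without any one of Hb3 (adjusted p = 0.0664), Lb1 (0.0737), Lb2 (0.0931) or Lb3 (0.0776), with log2 fold changes of 3.45 to 3.97. The interaction call was lost without any one of Ha1, Ha2, La1, La2, La3, Lb1, Lb2 or Lb3, with differences of 3.09 to 3.32 and edgeR adjusted p from 0.050 to 0.0745, and DESeq2, at 3.13, gave no adjusted p.

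Type I collagen, the bulk of tough connective tissue, joins chains of COL1A1 and COL1A2. Deposited FPKM of COL1A1 was 27.0, 39.1 and 24.8 in Ha, 0.90, 0.52 and 0.60 in Hb, 39.4, 35.0 and 48.0 in La, and 17.8, 16.5 and 16.5 in Lb. Every Hb library was under 1, Lb lay between Hb and the 30-day groups, and those 3 levels did not overlap. For COL1A1 edgeR gave -4.99 (standard error 0.33, adjusted p = 1.78e-05) on the log2 scale from Ha to Hb and called it higher from Hb to Lb. La to Lb gave -0.95 (standard error 0.13, adjusted p = 3.02e-04) in edgeR, just under the fold threshold, and the interaction of 4.02 (standard error 0.35, adjusted p = 3.72e-04) had the smallest adjusted p of the 41 chains. COL1A2, its partner, had deposited FPKM of 124, 139.8 and 128 in Ha, 13.1, 2.93 and 2.80 in Hb, 198, 185 and 258 in La, and 92.1, 94.9 and 72.7 in Lb. As with COL3A1, Hb1 was above Hb2 and Hb3 and below each library of the other groups. For COL1A2 edgeR gave -3.83 (standard error 0.68, adjusted p = 0.00184) from Ha to Hb, 3.64 (standard error 0.64, adjusted p = 0.0244) from Hb to Lb and 2.83 (standard error 0.71, adjusted p = 0.0372) for the interaction. Without Hb1 these COL1A2 values were -5.06, 4.83 and 4.10. The Hb to Lb call of COL1A2 was lost in edgeR without any one of Hb3 (adjusted p = 0.0687), Lb1 (0.0675), Lb2 (0.0888) or Lb3 (0.0665), with log2 fold changes of 3.29 to 3.78. Its interaction call was lost without any one of Ha1, Ha2, Hb3, La1, La2, La3, Lb1 or Lb2, with differences of 2.54 to 3.05 and edgeR adjusted p from 0.0526 to 0.0788. From La to Lb COL1A2 was at -0.98, also just under the fold threshold, and from Ha to La at 0.74.

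Type V chains start and limit the growth of type I fibrils. COL5A2 had deposited FPKM of 38.4, 38.6 and 36.7 in Ha, 5.34, 3.06 and 2.96 in Hb, 38.7, 38.3 and 47.5 in La, and 19.3, 19.5 and 19.7 in Lb, so the breeds overlapped at 30 days and were apart at 120 days. For COL5A2 edgeR gave -2.75 (standard error 0.27, adjusted p = 1.11e-04) from Ha to Hb, 2.17 (standard error 0.25, adjusted p = 0.00880) from Hb to Lb and an interaction of 1.96 (standard error 0.30, adjusted p = 0.00567). From La to Lb it was at -0.78, which did not pass the fold threshold. COL5A1, which pairs with it in the common type V trimer, had deposited FPKM of 0.48, 1.01 and 0.26 in Ha, 0, 0 and 0 in Hb, 2.25, 3.74 and 2.82 in La, and 0.55, 0.82 and 0.79 in Lb. It was at 0 counts in all Hb libraries and low in the rest. Against a floor of 3 counts per library COL5A1 was at least 23.7-fold lower in Hb than in Ha and at least 36.8-fold higher in Lb than in Hb, and the first bound was 15.2 without Ha2 (edgeR adjusted p = 0.00122 and 0.00627 with all libraries). From Ha to La edgeR gave COL5A1 2.36 (standard error 0.44, adjusted p = 0.00964), which was 3.01 without Ha2, and from La to Lb -1.72 (standard error 0.25, adjusted p = 3.17e-04). With Hb set at that floor, its age difference was at least 2.83 higher on the log2 scale in Landrace, or 2.19 without Ha2. With limma that interaction was -0.55 at a pseudocount of 1 and 0.74 at 0.1, neither called, and at 1 the Ha to Hb and Hb to Lb values, -0.64 and 0.78, were not called. COL5A3, a type V chain of fewer tissues, had deposited FPKM of 4.59, 4.88 and 4.23 in Ha, 0.73, 0.69 and 0.52 in Hb, 4.83, 4.2 and 4.66 in La, and 1.19, 2.03 and 1.08 in Lb. Both breeds were lower at 120 days, by edgeR log2 fold changes of -2.32 (standard error 0.20, adjusted p = 6.17e-05) and -1.35 (standard error 0.26, adjusted p = 0.00165). The difference of COL5A3 between breeds at 120 days, 1.03, was not called in edgeR, but DESeq2 called it (1.02, adjusted p = 0.0346).

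The remaining fibrillar chains are best known from cartilage and bone. COL27A1, of the transition from cartilage to bone, had deposited FPKM of 2.82, 3.11 and 3.56 in Ha, 0.35, 0.46 and 0.53 in Hb, 3.52, 3.79 and 3.98 in La, and 0.86, 0.75 and 0.89 in Lb. Ages were apart and the breeds overlapped at 30 days, with edgeR log2 fold changes of -2.35 (standard error 0.19, adjusted p = 4.55e-05) from Ha to Hb and -1.90 (standard error 0.14, adjusted p = 6.46e-06) from La to Lb. COL2A1, the chain of cartilage fibrils, had deposited FPKM of 2.61, 2.09 and 2.68 in Ha, 0.21, 0.43 and 0.51 in Hb, 0.18, 0.10 and 0.13 in La, and 0.13, 0.09 and 0.18 in Lb. Ha was the only group above 1, and the other groups lay at 0.51 or less. For COL2A1 edgeR gave -2.21 (standard error 0.32, adjusted p = 7.18e-04) from Ha to Hb and -4.11 (standard error 0.25, adjusted p = 1.78e-04) from Ha to La, and its interaction was 2.38 (standard error 0.49, adjusted p = 0.0182). COL24A1, a minor fibrillar chain of developing bone, had deposited FPKM of 0.59, 0.62 and 0.43 in Ha, 0.81, 1.08 and 0.78 in Hb, 0.10, 0.24 and 0.15 in La, and 0.81, 0.64 and 0.78 in Lb. It was lowest in La and went up with age in both breeds, by edgeR log2 fold changes of 1.18 (standard error 0.23, adjusted p = 0.00268) and 2.51 (standard error 0.34, adjusted p = 2.24e-04). At 30 days La was below Ha, at -1.73 (standard error 0.35, adjusted p = 0.0123), a call that edgeR lost without La3 (log2 fold change -1.65, adjusted p = 0.0562). The increase of COL24A1 in Hezuo was not called with library totals in place of TMM (0.88) or in either limma fit (0.29 and 0.61), and limma on log2(FPKM + 1) called no COL24A1 value. COL11A1 and COL11A2, of cartilage type XI, were not over 1.12 FPKM in any library; COL11A2, chosen after its values were seen, had edgeR log2 fold changes of 2.22 from La to Lb and 4.07 from Hb to Lb, from FPKM of 0.21 or less. The second was 4.67 without Hb1 and not called without any one of Hb3 (4.07), Lb1 (3.54) or Lb2 (4.04).

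Type IV chains make the sheet of every basement membrane. From Ha to Hb 3 of 5 tested type IV chains were lower (median -1.77), where 23.2% of all tested genes were. From La to Lb 1 was lower, or 2 without La2, with library totals and in both limma fits, and 1 was higher, or 2 without La3 and in both limma fits (median -0.32), so 1 of 5 each way is no more than the 20.1% and 27.5% of all tested genes. In Lb against Hb 5 of 5 were higher, beside 2.65% of all tested genes, with a median of 2.47, a count that was 3 without Hb3, 2 without Lb2 and 3 without Lb3. From Ha to La edgeR called 0 of 5 (median 0.02, or -0.02 with library totals), where 7.62% of all tested genes were called either way. In that comparison COL4A3 had an unadjusted p of 0.0171 in edgeR and was called in DESeq2 and, in edgeR, without Ha3 (log2 fold change -1.93, adjusted p = 0.00573), while limma called 0. COL4A1 and COL4A2, the chains of the common network, are neighbours on chromosome 11. COL4A1 had deposited FPKM of 99.6, 94.5 and 109 in Ha, 7.21, 4.46 and 4.35 in Hb, 109.5, 84.7 and 107 in La, and 38.8, 40.0 and 47.4 in Lb. COL4A2 had deposited FPKM of 122, 133 and 159.8 in Ha, 7.66, 5.52 and 3.60 in Hb, 153, 137 and 162 in La, and 36.1, 42.8 and 41.6 in Lb. For both, Ha and La overlapped, Hb was lowest and Lb lay between Hb and the 30-day groups without overlap. For COL4A1 edgeR gave -3.73 (standard error 0.28, adjusted p = 2.92e-05) from Ha to Hb, -0.95 (standard error 0.13, adjusted p = 2.22e-04) from La to Lb, under the fold threshold, and 2.85 (standard error 0.24, adjusted p = 0.00420) from Hb to Lb. For COL4A2 the edgeR log2 fold changes were -4.13 (standard error 0.33, adjusted p = 3.91e-05), -1.60 (standard error 0.11, adjusted p = 5.34e-06) and 2.72 (standard error 0.28, adjusted p = 0.00627). Their interactions were 2.77 and 2.52, with edgeR adjusted p of 0.00159 and 0.00344.

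COL4A3, COL4A4 and COL4A5 build a second type IV network, known from the kidney filter and also from seminiferous tubules. COL4A3 had deposited FPKM of 1.19, 2.11 and 0.43 in Ha, 0.74, 0.67 and 0.83 in Hb, 0.54, 0.36 and 0.36 in La, and 2.22, 3.27 and 5.41 in Lb. The 3 Lb libraries were the highest of the 12, Ha ran from 0.43 to 2.11, and Hb and La stayed under 1. From La to Lb edgeR gave COL4A3 3.39 (standard error 0.33, adjusted p = 3.31e-05), and from Ha to Hb -0.23, which was not called. Its value from Hb to Lb was 2.15 (standard error 0.31, adjusted p = 0.0150) in edgeR, lost without Hb3 (2.24, adjusted p = 0.0514) or Lb2 (2.20, 0.0611). The interaction of COL4A3 was 3.61 (standard error 0.66, adjusted p = 0.0115) in edgeR, or 3.00 without Ha2. COL4A4 had deposited FPKM of 1.87, 0.81 and 0.08 in Ha, 0.29, 0.25 and 0.52 in Hb, 0.06, 0 and 1.13 in La, and 1.22, 2.09 and 3.09 in Lb. Both 30-day groups were widely spread, and Lb was above Hb without overlap, at 2.47 (standard error 0.40, adjusted p = 0.0207) in edgeR, a call lost without Lb2 (2.46, adjusted p = 0.0791) or Lb3 (2.16, 0.0665) and in the edgeR fit of 12 libraries (2.42). COL4A5 had deposited FPKM of 17.8, 17.8 and 16.3 in Ha, 5.06, 3.62 and 2.03 in Hb, 16.9, 16.2 and 20.1 in La, and 9.54, 12.3 and 12.6 in Lb, so that Hb was again the low group. Its edgeR log2 fold changes were -1.77 (standard error 0.32, adjusted p = 0.00206) from Ha to Hb and 1.56 (standard error 0.32, adjusted p = 0.0353) from Hb to Lb, and its interaction was 1.44 (standard error 0.37, adjusted p = 0.0399). The Hb to Lb call of COL4A5 was lost without any one of Hb2, Hb3, Lb1, Lb2 or Lb3 (1.28 to 1.66, edgeR adjusted p from 0.0514 to 0.119). Its interaction call was lost without any one of Ha1, Ha2, Hb2, La1, La2, La3, Lb1, Lb2 or Lb3 (1.36 to 1.58, edgeR adjusted p from 0.0524 to 0.0857). COL4A6, known from smooth muscle basement membranes and a neighbour of COL4A5 on chromosome X, was at 0 in 11 of 12 libraries and at 0.08 FPKM in La2.

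FACIT chains bind to the surface of fibrils. From Ha to Hb 5 of 9 tested FACIT chains were lower and 1 higher (median -2.18), from La to Lb 3 were lower, or 5 with library totals and in both limma fits, and 1, COL22A1, higher (median -0.84), and from Hb to Lb 3 were higher (median 0.82), or 1 without any one of Hb3, Lb2 or Lb3. Of all tested genes 23.2% were lower and 28.2% higher in the first of these, 20.1% and 27.5% in the second, and 2.65% higher in the last. In the interaction 2 of 9 were called positive, where 3.51% of all tested genes were, and the median of the class was -0.16, or 0.01 with library totals and 0.25 in DESeq2, so it has no set direction. In edgeR 0 of 9 were called negative, where 1.62% of all tested genes were; COL9A2, at -1.63, was the 1 chain with an unadjusted p under 0.05 in that direction (0.0119). DESeq2 called COL9A2 negative (-1.67), as did edgeR without Ha3 (-2.29), while limma called COL9A3 at a pseudocount of 1 (-2.25) and 0 at 0.1. Type IX chains coat the fibrils of cartilage. COL9A2 had deposited FPKM of 42.1, 59.1 and 147 in Ha, 10.7, 10.7 and 11.2 in Hb, 449.7, 582 and 543 in La, and 19.2, 19.4 and 39.3 in Lb. La stood above every other library, and in Ha the library Ha3 was well above the others. From Ha to La edgeR gave COL9A2 2.70 (standard error 0.43, adjusted p = 0.00552), or 3.40 without Ha3, and from La to Lb -4.04 (standard error 0.28, adjusted p = 4.22e-06). For the Hezuo ages it gave -2.44 (standard error 0.45, adjusted p = 0.00223), or -1.73 without Ha3. From Hb to Lb COL9A2 was at 1.12 (standard error 0.26, adjusted p = 0.0485) in edgeR, and this call was lost without any one of the 6 libraries, with log2 fold changes of 0.75 to 1.28 and adjusted p from 0.0660 to 0.133, and in the fit of 12 libraries (1.07). COL9A3, a partner chain of type IX, had deposited FPKM of 0.54, 1.0 and 2.16 in Ha, 0.07, 0 and 0.03 in Hb, 10.7 to 11.5 in La, and 0.32, 0.27 and 0.10 in Lb. Like COL9A2 it was far higher in La than elsewhere, by an edgeR log2 fold change of 3.19 (standard error 0.41, adjusted p = 0.00278) over Ha and -5.24 (standard error 0.33, adjusted p = 2.71e-06) from La to Lb. Its Ha to Hb value of -4.63 (standard error 0.98, adjusted p = 0.00425) in edgeR was -3.94 without Ha3, -6.01 without Hb1 and -4.01 without Hb2, and its Ha to La value was 3.87 without Ha3. COL9A1, the remaining type IX chain, had deposited FPKM of 0.30, 0.31 and 0.27 in Ha, 0.67, 0.46 and 0.53 in Hb, 0.51, 0.54 and 0.47 in La, and 0.48, 0.87 and 0.29 in Lb and so did not share the La peak. It was higher in Hb than in Ha, at 1.27 (standard error 0.34, adjusted p = 0.0121) in edgeR, which was not called with library totals in place of TMM (0.95) or in either limma fit (0.26 and 0.72).

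COL16A1, a FACIT chain of fibroblasts and smooth muscle, had deposited FPKM of 15.1, 13.2 and 17.5 in Ha, 1.90, 2.82 and 2.52 in Hb, 19.1, 19.0 and 24.2 in La, and 10.9, 7.03 and 10.1 in Lb. Hb was far below the rest and Lb between Hb and the 30-day groups. For COL16A1 edgeR gave -2.18 (standard error 0.17, adjusted p = 3.27e-05) from Ha to Hb, 1.83 (standard error 0.21, adjusted p = 0.00897) from Hb to Lb and an interaction of 1.31 (standard error 0.25, adjusted p = 0.0140), while La to Lb, at -0.85, stayed under the fold threshold. COL22A1, found at tissue junctions such as that of muscle and tendon, had deposited FPKM of 1.68, 1.97 and 1.11 in Ha, 1.60, 1.27 and 0.95 in Hb, 0.96, 0.97 and 0.67 in La, and 1.37, 1.18 and 1.86 in Lb. Lb lay above La without overlap, the Hezuo groups overlapped, and of the comparisons with all libraries only La to Lb was called, at 1.06 (standard error 0.23, adjusted p = 0.00363) in edgeR. That edgeR call was lost without La3 (0.89, adjusted p = 0.0141) or Lb3 (0.91, 0.0137), with library totals (0.90) and in limma at a pseudocount of 1 (0.40) or 0.1 (0.69). Without Ha3, edgeR also called COL22A1 lower from Ha to La (-1.04, adjusted p = 0.0156). COL20A1 was at 0.18 FPKM or less throughout. Outside the rule for named chains and chosen after their values were seen, COL12A1 and COL14A1, which both bind type I fibrils, differed from each other. COL12A1 had deposited FPKM of 6.85, 7.63 and 9.61 in Ha, 7.44, 8.38 and 7.52 in Hb, 4.35, 5.26 and 8.14 in La, and 4.59, 4.90 and 9.25 in Lb, with the groups overlapping and no call. COL14A1 had deposited FPKM of 14.3, 17.1 and 11.3 in Ha, 1.79, 0.90 and 0.92 in Hb, 10.8, 14.2 and 19.5 in La, and 6.56, 5.13 and 7.89 in Lb, and edgeR gave it -3.00 (standard error 0.36, adjusted p = 2.55e-04) from Ha to Hb and 2.28 (standard error 0.32, adjusted p = 0.0150) from Hb to Lb. The second COL14A1 value lost its call without Hb3 (2.12, edgeR adjusted p = 0.0543), Lb2 (2.42, 0.0528) or Lb3 (2.16, 0.0524).

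**Figure D3:**
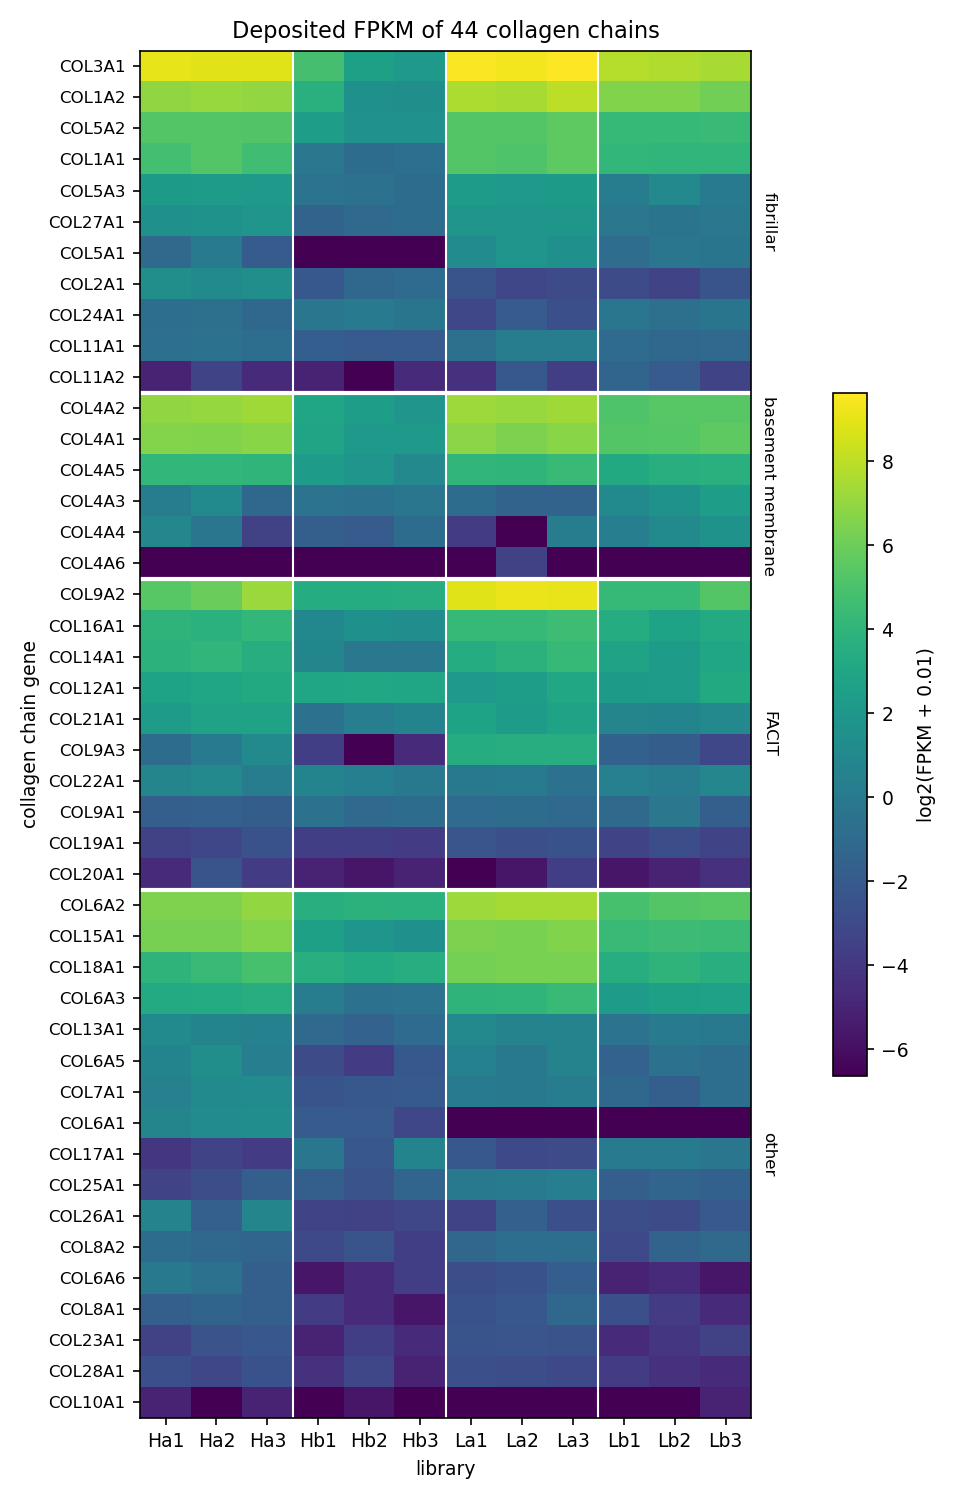
Deposited FPKM of the 44 chains as log2(FPKM + 0.01), with libraries in columns by group and chains in rows by class, ordered within a class by mean level. COL3A1 runs from 454 to 793 in the 30-day libraries and from 4.23 to 28.3 in Hb, and COL9A2 from 450 to 582 in La.

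Among the other types, 11 of 16 tested chains were lower from Ha to Hb (median -2.60) and 7 of 15 from La to Lb (median -1.25), with 1 higher each time, COL17A1; without Ha3 the Ha to Hb count of higher chains was 2. Of all tested genes 23.2% were lower and 28.2% higher from Ha to Hb, and 20.1% and 27.5% from La to Lb. With limma on log2(FPKM + 1) the 11 lower were 6 of 15, the 7 lower were 4 of 15 and COL17A1 was not called (0.75 and 0.77). From Hb to Lb 3 of 12 were higher (median 1.08), beside 2.65% of all tested genes. From Ha to La 2 of 16 were higher and 3 lower (median 0.05), beside 3.60% and 4.01% of all tested genes, the latter 1 without any one of La1, La2 or La3, and with limma on log2(FPKM + 1) each was 1. The 3 lower include the assembled COL6A1 row described below. In the interaction 5 of 16 were called positive, or 3 without any one of Ha1, Hb1, La1, La3, Lb2 or Lb3, and 2 negative, or 1 without any one of Ha1, Ha2, Hb3, La2, La3, Lb1 or Lb3; limma on log2(FPKM + 1) called 3 positive and 1 negative. Among all tested genes 3.51% were called positive and 1.62% negative.

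Type VI chains form beaded filaments close to basement membranes, and 5 of 5 were lower from Ha to Hb and 3 of 4 tested from La to Lb, where 23.2% and 20.1% of all tested genes were. One of the 5 is the assembled COL6A1 row described below. COL6A2 had deposited FPKM of 89.9, 87.8 and 129 in Ha, 12.4, 13.8 and 13.6 in Hb, 152, 169.6 and 173 in La, and 29.3, 38.6 and 41.7 in Lb. La was the highest group, Hb the lowest, and no groups overlapped. For COL6A2 edgeR gave -2.46 (standard error 0.18, adjusted p = 3.01e-05) from Ha to Hb, -1.86 (standard error 0.13, adjusted p = 5.76e-06) from La to Lb and 1.34 (standard error 0.15, adjusted p = 0.00840) from Hb to Lb; the interaction, 0.57, was not called. COL6A3, the large chain that completes the trimer, had deposited FPKM of 10.1, 10.3 and 11.07 in Ha, 1.20, 0.69 and 0.72 in Hb, 15.2, 16.1 and 20.01 in La, and 5.09, 6.03 and 6.26 in Lb. It showed the same order of groups without overlap, with edgeR log2 fold changes of -3.08 (standard error 0.28, adjusted p = 7.26e-05) from Ha to Hb, -1.25 (standard error 0.13, adjusted p = 5.52e-05) from La to Lb, 2.60 (standard error 0.26, adjusted p = 0.00627) from Hb to Lb and 1.81 (standard error 0.31, adjusted p = 0.00861) for the interaction. COL6A5 and COL6A6 can stand in for COL6A3 in the trimer, and they were much less abundant. COL6A5 had deposited FPKM of 1.61, 2.61 and 1.26 in Ha, 0.13, 0.06 and 0.21 in Hb, 1.39, 0.95 and 1.56 in La, and 0.34, 0.66 and 0.58 in Lb. It was lower from Ha to Hb, at -3.25 (standard error 0.50, adjusted p = 8.60e-04) in edgeR, and its interaction was 2.30 (standard error 0.59, adjusted p = 0.0406). That interaction call was lost without any one of Ha1, Ha2, Hb1, La1, La2, La3, Lb2 or Lb3 (1.95 to 2.5, edgeR adjusted p from 0.0551 to 0.0970) and with limma on log2(FPKM + 1) (0.70). COL6A6 had deposited FPKM of 0.94, 0.70 and 0.29 in Ha, 0.01, 0.03 and 0.07 in Hb, 0.14, 0.16 and 0.28 in La, and 0.02, 0.03 and 0.01 in Lb, near 0 in both 120-day groups. For COL6A6 edgeR gave -3.63 (standard error 0.68, adjusted p = 0.00229) from Ha to Hb, or -4.44 without Hb3, and -2.66 (standard error 0.50, adjusted p = 0.00152) from La to Lb. From Ha to La it gave -1.71 (standard error 0.46, adjusted p = 0.0355), lost without any one of Ha1, Ha2, La1, La2 or La3 (-2.07 to -1.33, adjusted p from 0.0545 to 0.113), in the fit of 12 libraries (-1.71) and in limma on log2(FPKM + 0.1) (-1.26). With limma on log2(FPKM + 1) no COL6A6 value was called.

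COL6A1, the remaining chain of the common type VI trimer, rests on a short assembled row with no RefSeq position. Its deposited FPKM was 1.71, 2.31 and 2.56 in Ha, 0.24, 0.25 and 0.10 in Hb, 0, 0 and 0 in La, and 0, 0 and 0 in Lb, at 0 counts in all 6 Landrace libraries. Against the floor of 3 counts per library it was at least 16.0-fold lower in La than in Ha (edgeR adjusted p = 0.00193). For Ha to Hb edgeR gave the row -2.93 (standard error 0.48, adjusted p = 0.00117). A further row, LOC100623720, on chromosome 13 from 208295245 to 208321789, is described in the table as a type VI alpha 1 chain but its symbol is outside the rule; it was looked at after the values of COL6A1 were seen. LOC100623720 had deposited FPKM of 74.6, 80.2 and 73.2 in Ha, 8.20, 8.84 and 4.66 in Hb, 97.3, 95.1 and 104 in La, and 27.7, 33.8 and 38.4 in Lb, far above the assembled row in every library, and was present in both breeds. For LOC100623720 edgeR gave -2.91 (standard error 0.25, adjusted p = 5.36e-05) from Ha to Hb, -1.27 (standard error 0.12, adjusted p = 2.46e-05) from La to Lb, 2.09 (standard error 0.25, adjusted p = 0.00953) from Hb to Lb and 1.63 (standard error 0.27, adjusted p = 0.00842) for the interaction, and 0.41 from Ha to La, which was not called. As deposited, with no tolerance, its counts were whole numbers in 6 of 6 Landrace libraries and in 0 of 6 Hezuo libraries. With both rows described as the same chain, the breed difference of the COL6A1 row is not taken here as that of the gene. LOC100623720 held 3.15% to 6.08% of the counts of all rows that are collagen chains by rule or description. The table had 36 rows so described outside the rule, 8 of them at 0 in every library, and the other 35 together held 0.227% to 4.10% of those counts.

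The multiplexins COL15A1 and COL18A1 sit in the basement membrane zone, and COL18A1 is the source of endostatin. COL15A1 had deposited FPKM of 79.7, 77.3 and 96.7 in Ha, 6.12, 3.82 and 2.86 in Hb, 87.3, 81.9 and 93.6 in La, and 19.9, 23.0 and 21.5 in Lb. Its groups were ordered as for COL4A1 and COL4A2, with Hb lowest, Lb next and the 30-day groups overlapping. For COL15A1 edgeR gave -3.80 (standard error 0.33, adjusted p = 6.25e-05) from Ha to Hb, -1.72 (standard error 0.11, adjusted p = 2.79e-06) from La to Lb and an interaction of 2.07 (standard error 0.34, adjusted p = 0.00789). From Hb to Lb it gave 2.20 (standard error 0.29, adjusted p = 0.0119), lost without Lb2 (2.14, adjusted p = 0.0569). COL18A1 had deposited FPKM of 15.1, 19.7 and 30.2 in Ha, 12.0, 9.82 and 11.4 in Hb, 73.8, 80.3 and 82.7 in La, and 11.2, 15.3 and 12.2 in Lb. Here La stood apart above the other groups, and Hb and Lb overlapped. For COL18A1 edgeR gave 1.90 (standard error 0.23, adjusted p = 0.00213) from Ha to La, -2.30 (standard error 0.15, adjusted p = 2.73e-06) from La to Lb and an interaction of -1.84 (standard error 0.33, adjusted p = 0.0104), the opposite sign to COL15A1. Its Ha to Hb value, -0.47, was not called. Among the transmembrane chains, COL17A1, of the hemidesmosomes that fix epithelia to their basement membrane, had deposited FPKM of 0.05, 0.09 and 0.06 in Ha, 0.83, 0.20 and 1.62 in Hb, 0.21, 0.11 and 0.13 in La, and 0.99, 1.07 and 0.81 in Lb. It was low at 30 days and higher at 120 days in both breeds, by edgeR log2 fold changes of 4.22 (standard error 0.79, adjusted p = 0.00233), or 3.48 without Hb3, and 2.99 (standard error 0.32, adjusted p = 6.46e-05), with Hb spread widely. Outside the rule for named chains and chosen after their values were seen, COL25A1, a transmembrane chain of brain and muscle innervation, and COL7A1, of the anchoring fibrils of skin, also had called interactions. COL25A1 had deposited FPKM of 0.09, 0.14 and 0.30 in Ha, 0.29, 0.17 and 0.38 in Hb, 0.94, 1.06 and 1.24 in La, and 0.30, 0.38 and 0.32 in Lb, highest in La, and COL7A1 of 1.38, 2.16 and 2.28 in Ha, 0.18, 0.21 and 0.23 in Hb, 1.01, 0.93 and 1.19 in La, and 0.44, 0.29 and 0.58 in Lb, lowest in Hb and Lb. The interaction was -2.56 (standard error 0.58, adjusted p = 0.0265) for COL25A1 in edgeR, and it was lost without any one of Ha1, Ha2, Hb3, La2, La3, Lb1 or Lb3 (-2.53 to -2.20, adjusted p from 0.0533 to 0.0713), and 1.78 (standard error 0.36, adjusted p = 0.0169) for COL7A1. The 8 chains not described so far, COL8A1, COL8A2, COL13A1, COL19A1, COL21A1, COL23A1, COL26A1 and COL28A1, had a highest FPKM of 0.16 to 6.81.

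Some chains are neighbours on the Sscrofa11.1 assembly, and neighbours were not always alike. COL4A1 (chromosome 11, 76858332 to 76997409) and COL4A2 (76996885 to 77161617) overlap by 525 bases and had similar values. COL4A3 (chromosome 15, 128611640 to 128763331) and COL4A4 (128472228 to 128612302) overlap by 663 bases. COL3A1 (chromosome 15, 93556914 to 93595678) is followed by COL5A2 (93611856 to 93981131), and both were lowest in Hb. COL9A1 (chromosome 1, 50403355 to 50498356) adjoins COL19A1 (50044394 to 50402256), while COL9A2 lies on chromosome 6 (96065282 to 96081547) and COL9A3 on chromosome 17 (62074108 to 62094228). COL6A2 was on sequence not placed on a chromosome, and 43 of 44 chains had a RefSeq position. COL4A4 shares 26924 bases with RHBDD1, COL9A3 323 bases with TCFL5, COL6A6 1270 bases with LOC100739656, COL5A2 78 bases with WDR75 and COL10A1 6990 bases with NT5DC1. The libraries kept strand, as the second cDNA strand was digested, but whether the counting used it is not stated, so the values of overlapping chains are uncertain to that extent.

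The machinery that makes and uses collagen was followed with a list of 45 rows for modification and folding, secretion, propeptide processing, cross-linking and receptors; the receptor LAIR1 had no row. Between Ha and Hb 25 of 45 were lower in Hb and 4 higher (median -1.44), from La to Lb 20 lower and 5 higher (median -0.99), and from Ha to La 3 higher and 2 lower (median 0.08). Of all tested genes 23.2% were lower and 28.2% higher in the first comparison, 20.1% and 27.5% in the second, and in the last 3.60% were higher and 4.01% lower. Between Hb and Lb 7 of 44 were higher in Lb (median 0.45), where 2.65% of all tested genes were, a count that was 3 without Hb3, 3 without Lb1, 2 without Lb2 and 3 without Lb3. The Ha to La count of 3 was 1 without Ha1 and 5 without Ha3. In the interaction 10 of 45 were called positive, or 6 without La3, where 3.51% of all tested genes were. By step, 10 of 18 modification genes, 5 of 8 propeptide genes, 5 of 5 cross-linking genes and 5 of 8 receptors were lower from Ha to Hb, and 2 of 6 secretion rows were higher, beside 28.2% of all tested genes. From La to Lb 8 of 18, 6 of 8, 2 of 5 and 4 of 8 were lower, and 3 of 6 secretion rows higher, beside 27.5% of all tested genes; the cross-linking count was 1 without La2 or Lb2.

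FKBP10 and P3H3 act on procollagen chains in the endoplasmic reticulum, FKBP10 as a chaperone and P3H3 in a lysine-modifying complex. The CPM of FKBP10 was 84.0, 90.1 and 139 in Ha, 7.36, 11.7 and 12.5 in Hb, 203, 223 and 220.4 in La, and 37.0, 46.5 and 46.6 in Lb. The CPM of P3H3 was 14.3, 25.1 and 26.6 in Ha, 1.28, 2.14 and 1.71 in Hb, 52.9, 49.9 and 47.7 in La, and 11.6, 9.32 and 13.6 in Lb. Both had the group order of COL6A2, La highest and Hb lowest without overlap. For FKBP10 edgeR gave -2.30 (standard error 0.13, adjusted p = 1.31e-06) from La to Lb, 2.08 (standard error 0.25, adjusted p = 0.00953) from Hb to Lb and 1.05 (standard error 0.18, adjusted p = 0.00689) from Ha to La, the last under the fold threshold without Ha1 (0.91) or Ha2 (0.95). For P3H3 edgeR gave 2.78 (standard error 0.32, adjusted p = 0.00880) from Hb to Lb and 1.19 (standard error 0.21, adjusted p = 0.00839) from Ha to La, or 0.96 without Ha1. LOXL2, which cross-links collagen, had CPM of 30.5, 32.8 and 37.5 in Ha, 2.67, 3.57 and 3.49 in Hb, 43.0, 38.7 and 44.7 in La, and 11.7, 12.4 and 10.7 in Lb. ITGA2, a collagen-binding integrin chain, had CPM of 19.0, 20.5 and 20.5 in Ha, 1.28, 1.86 and 1.98 in Hb, 11.5, 10.1 and 14.7 in La, and 1.62, 2.31 and 2.16 in Lb. Both were lower at 120 days in each breed without overlap, by edgeR log2 fold changes from Ha to Hb of -3.37 (standard error 0.20, adjusted p = 1.08e-05) for LOXL2 and -3.55 (standard error 0.23, adjusted p = 1.72e-05) for ITGA2. PCOLCE, which speeds removal of the procollagen C-propeptide, had CPM of 54.6, 51.8 and 52.4 in Ha, 0, 0 and 8.77 in Hb, 93.0, 83.5 and 94.4 in La, and 0, 0 and 0 in Lb. It was at 0 in 5 of 6 libraries at 120 days and at least 624-fold lower in Lb than in La against the floor of 3 counts per library. MIA3 and MIA2 load collagen into transport carriers at exit sites of the endoplasmic reticulum, and SEC23A is a coat protein there. MIA3 had CPM of 22.7, 19.3 and 15.8 in Ha, 106, 284 and 234 in Hb, 33.9, 41.5 and 59.3 in La, and 260.0, 133 and 239 in Lb and went up with age, by edgeR log2 fold changes of 3.43 (standard error 0.37, adjusted p = 1.64e-04) in Hezuo and 2.25 (standard error 0.29, adjusted p = 1.93e-04) in Landrace. MIA2 had 2 rows, of which only the assembled one was named by the rule, with CPM of 32.3, 18.6 and 5.08 in Ha, 463, 184 and 296 in Hb, 0.424, 0.301 and 0.318 in La, and 276, 198 and 214 in Lb. Its edgeR log2 fold changes were 4.08 (standard error 0.68, adjusted p = 0.00134) from Ha to Hb, 9.35 (standard error 0.23, adjusted p = 3.63e-08) from La to Lb and -5.73 (standard error 0.74, adjusted p = 0.00278) from Ha to La; the first was 4.73 and the last -5.07 without Ha1, and the RefSeq row of MIA2 was not called in any comparison. SEC23A was lower in La than in Ha, at -1.33 (standard error 0.22, adjusted p = 0.00628) in edgeR, with CPM of 146, 118 and 114 in Ha, 168, 182 and 131 in Hb, 66.7, 34.9 and 48.4 in La, and 149, 123 and 144 in Lb.

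Markers of several cell types that make collagen also differed between the groups, and their part in the collagen results was not tested. The 6 fibroblast and stromal genes without collagens, led by PDGFRA, had summed CPM of 791, 771 and 954 in Ha, 172, 199.5 and 128 in Hb, 1126, 1077 and 1207 in La, and 317, 375 and 371 in Lb. Of all tested genes 23.2% were lower and 28.2% higher from Ha to Hb, 20.1% and 27.5% from La to Lb, and 2.65% higher from Hb to Lb, which stand beside the counts of markers here. The stromal genes were 6 of 6 lower in both age comparisons, and 2 of 6, PDGFRB and FBLN1, higher from Hb to Lb, which was 0 without any one of Hb3, Lb1, Lb2 or Lb3. The group order of that sum, La, Ha, Lb, Hb, was the order of the summed collagen FPKM, and no gene of the list was at the floor throughout. By group mean the Sertoli cell, Leydig cell, endothelial and macrophage sums had this order too, so it was not particular to the stromal list. The 5 peritubular myoid and smooth muscle genes, led by ACTA2, had summed CPM of 307, 330.1 and 335 in Ha, 143, 214 and 179 in Hb, 278, 246 and 273 in La, and 386, 439 and 562 in Lb. That sum was highest in Lb and lowest in Hb, so in Landrace it was higher at 120 days, where the collagen sum was lower. Of these 5 genes 2 were lower from Ha to Hb (median -0.74), 2 higher from La to Lb (median 0.37) and 2 higher from Hb to Lb (median 0.80). ACTA2 had edgeR log2 fold changes of -1.14 (standard error 0.17, adjusted p = 6.95e-04) from Ha to Hb, 1.42 (standard error 0.18, adjusted p = 1.44e-04) from La to Lb and 1.96 (standard error 0.24, adjusted p = 0.00953) from Hb to Lb. CNN1 lost its edgeR call from Ha to Hb without Ha2 or Hb2, and from La to Lb without La2 or Lb3. The 5 endothelial genes, led by VWF, had summed CPM of 669, 681 and 616 in Ha, 173, 305 and 186 in Hb, 795, 627 and 756 in La, and 316, 497 and 278 in Lb, with 5 of 5 lower from Ha to Hb and 3 of 5 from La to Lb. Leydig cell genes had summed CPM of 10083, 9583 and 8748 in Ha, 13672, 9323 and 11208 in La, and 4921, 7415 and 3085 in Lb, beside the Hb values already given, with 4 of 7 lower from Ha to Hb and 5 of 7 from La to Lb. Sertoli cell genes had summed CPM of 1269, 1209 and 1664 in Ha, 405, 578.5 and 467 in Hb, 2641, 3212 and 2914 in La, and 604, 753 and 640 in Lb. That sum was highest in La, as were the summed collagen FPKM and several chains, among them COL3A1, COL1A2, COL6A2, COL6A3, COL9A2, COL9A3 and COL18A1. Of the 8 Sertoli cell genes 4 were lower in each age comparison, and 3 were higher from Ha to La, where 3.60% of all tested genes were. The spermatocyte and spermatid genes tested, 8 of 8 and 9 of 9, were higher in both age comparisons. Macrophage rows, led by CSF1R, summed to 28.7 to 65.6 CPM at 120 days and 101 to 124 CPM at 30 days.

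Tissue from outside the testis was looked for with short lists. Of 5 cartilage genes, COMP alone was abundant, with CPM of 0.575, 0.562 and 0.466 in Ha, 467, 385 and 631 in Hb, 1.31, 0.452 and 0.358 in La, and 290.2, 239 and 261 in Lb; the other 4, ACAN, MATN1, MATN3 and CHAD, did not exceed 13.7 CPM. COMP was thus high at 120 days, whereas COL2A1 was highest in Ha and COL9A2 in La. The 4 epididymal genes summed to 3.84 CPM or less, the 4 genes of the mesothelial tunica, led by KRT19, to 3.76 to 12.8 CPM, and the 3 red blood cell genes, led by HBB, to 5.45 to 147 CPM.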

How the data were processed

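Total RNA of 12 pig testes was depleted of ribosomal RNA and sequenced. Per their processing notes, the authors filtered reads with fastp 0.18.0, removed ribosomal reads with Bowtie2 2.2.8, mapped them to Sus scrofa 11.1 with HISAT2 2.1.0 and assembled with StringTie 1.3.4. The deposited coding-gene table holds an estimated count and an FPKM per gene and library; the tool behind the counts is not stated in the sources used, 68.4% of its count values were whole as deposited (no tolerance), and all were rounded. Members and lists were chosen with earlier results of these data known.

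Counts were fitted per comparison on its 6 libraries with edgeR 4.0.16 quasi-likelihood tests (TMM, filterByExpr with a minimum count of 10) in R 4.3.3, the interaction on all 12, with Benjamini-Hochberg adjustment over all tested genes. CPM are TMM-scaled. Alternatives were DESeq2 1.42.0, limma 3.58.1 on log2(FPKM + 1) or log2(FPKM + 0.1) for genes at FPKM 0.1 in every library of a group, RLE factors, library totals, no or a stricter filter, no fold threshold, 1 fit of 12 libraries, a replicate block, CPM sums in place of FPKM, and leaving out each library. The fits were tested on simulated data. Tables and plots used Python 3.11.15, pandas 2.3.3 and matplotlib 3.10.9.

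Named chains were, per class, the 2 with the highest mean FPKM and the called chain with the smallest adjusted p per comparison and direction, then the 6 smallest called interactions, the partners, in types I, IV, V, VI, VIII and XI, of chains so named, up to 4 called in both comparisons of age or of breed, any called in opposite directions, and up to 4 at the floor of 3 counts in a group. Named pathway genes were the 2 with the smallest adjusted p per comparison and direction. The noncoding tables were not used.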

Additional observations from a re-analysis of the deposited data

Results flagged for a closer look

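For 19 of 41 tested chains the age difference of Landrace minus that of Hezuo passed the interaction test of edgeR, where 5.14% of all tested genes did. These log2 differences were 4.02 for COL1A1, 2.77 for COL4A1, 2.52 for COL4A2, 1.96 for COL5A2, 2.07 for COL15A1, 1.81 for COL6A3, 3.61 for COL4A3, 1.31 for COL16A1, 1.78 for COL7A1, 2.14 for COL14A1, 2.38 for COL2A1, 3.19 for COL3A1, 2.83 for COL1A2, 1.44 for COL4A5, 3.39 for COL26A1 and 2.30 for COL6A5, all with a higher Landrace value. COL18A1 at -1.84 and COL25A1 at -2.56 went the other way. The calls of COL3A1, COL1A2, COL4A5, COL6A5 and COL25A1 were each lost without any one of several libraries, as given above. DESeq2 gave no adjusted p for COL3A1. COL5A1 was at 0 in all Hb libraries, and with Hb at 3 counts per library its difference was at least 2.83; with limma on log2(FPKM + 1) it was -0.55 and not called. For COL2A1 the difference comes with a decrease in Hezuo and levels of 0.18 FPKM or less in Landrace. The COL26A1 call was lost without any one of 10 libraries, Ha2 and La2 being the exceptions, with differences of 3.08 to 3.55, and its value was 3.99 without La2; its deposited FPKM was 1.57, 0.31 and 1.70 in Ha, 0.09, 0.08 and 0.10 in Hb, 0.09, 0.31 and 0.15 in La, and 0.14, 0.13 and 0.22 in Lb.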

How the results depend on the processing

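Of 77 called fold changes of the named chains, interactions included, 53 kept their direction and call in every alternative in which they could be fitted, and 63 in each fit that left out 1 library. Outside those leave-one-out fits, 1096 values stayed called or stayed uncalled, 30 lost and 32 gained a call, and 1 reversed: the COL5A1 interaction was -0.55 with limma on log2(FPKM + 1). In the leave-one-out fits 872 values were kept, 65 lost and 17 gained a call. From Ha to Hb the 3 higher chains were 1 with library totals, 0 with limma at a pseudocount of 1 and 1 at a pseudocount of 0.1, and from La to Lb the 5 higher chains were 2 with limma on log2(FPKM + 1). The 15 lower chains from La to Lb were 25 with no fold threshold and 23 with library totals. From Ha to La the 5 higher chains were 10 with no fold threshold, and the 5 lower were 2 with limma on log2(FPKM + 1) and 2 to 6 with 1 library left out. From Hb to Lb the 17 higher chains were 8 to 16 with 1 library left out, and the 0 lower were 1 in DESeq2, 1 with limma on log2(FPKM + 0.1) and 2 in the fit of 12 libraries. The 2 called negative interactions were 1 to 3 with 1 library left out. With CPM sums, which weight long genes more, type IV held 23.9% in Ha, 19.0% in Hb, 16.0% in La and 21.5% in Lb, and in La the FACIT, fibrillar and other chains held 17.8%, 48.9% and 17.2%. The causes of these differences were not tested.

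Replicate numbers did not pair the libraries: deviations of same-numbered libraries correlated at -0.0245 to 0.0495 across genes. With the number as a block, the 5 lower chains from Ha to La were 3 and no other count over all 44 chains moved by over 1.5 times. By class, the other types had 1 in place of 3 lower from Ha to La and 3 in place of 5 called positive interactions, type IV had 2 in place of 1 higher from La to Lb, and FACIT had 1 called negative interaction in place of 0.

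A fold against a group at 0 is only a bound.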
